A study of Mus musculus with 6 samples.

Results

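The Dlk1-Dio3 imprinted cluster lies on mouse chromosome 12. It was examined in the colon of mice with a deletion of Hdac2, which encodes a histone deacetylase, in the intestinal epithelium. Its members were taken as all array probe sets annotated with 1 of 6 gene symbols: Meg3, Rian, Mirg, Dlk1, Dio3 and Rtl1. The rule found 19 of the 45037 probe sets that were no array controls, 11 of them for Meg3, 4 for Rian, 2 for Mirg and 2 for Dlk1. None carried the symbol Dio3 or Rtl1, so 4 of the 6 genes were measured. The cluster was taken up because Meg3 was already known to differ between the groups of these data. All differences of the members between the groups are therefore a description and carry no test.

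Both groups came from mice of a mixed CD-1, 129 and C57BL/6 background that were given no treatment. In the HDAC2 KO group, floxed Hdac2 was removed by villin-Cre, a transgene whose promoter drives Cre in the epithelium of the gut and leaves Hdac2 in other colon cells. The control group is labelled only as control. The sources used here give neither its floxed allele, nor its Cre status, nor any age. There were 3 arrays of control and 3 of HDAC2 KO, each labelled with 1 numbered mouse. The labels name epithelium as the source, yet the protocol speaks of RNA of the colon, and the description of the second group names HDAC1 as well as HDAC2. The group is called HDAC2 KO after its title and genotype.

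In this cluster, imprinting silences 1 parental copy of each gene. On the maternal chromosome an unmethylated control region between Dlk1 and Meg3 allows transcription of long non-coding RNAs: Meg3, also called Gtl2, Rian, which carries small nucleolar RNAs, and Mirg, which carries microRNAs. On the paternal chromosome that region is methylated, the non-coding RNAs are silent, and the protein-coding genes are expressed: Dlk1 encodes a transmembrane relative of the Notch ligands found on preadipocytes, Rtl1 a retrotransposon-derived protein and Dio3 the deiodinase that inactivates thyroid hormone. Many of these genes are best known from the embryo, the placenta and the brain.

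The RefSeq annotation of GRCm38.p6 placed Dlk1 first, at chr12:109452485-109463336. Meg3 lay at chr12:109540996-109571729, Rian at chr12:109603945-109661716 and Mirg at chr12:109734981-109749458. Dio3, at chr12:110279230-110281097, ended the interval. The annotated start regions of the 4 measured genes are shown because they differ in sequence. Most probe sets of these genes were higher in HDAC2 KO. Each window covers 250 bases before and 50 bases from a transcript start on the plus strand, from RefSeq (GRCm38.p6). For Meg3, Rian and Mirg that start is the gene start given above, whereas the Dlk1 window is set on a start at 109452823, 338 bases inside the gene. Capitals mark matches, on either strand, to the full cyclic AMP response element TGACGTCA, its shorter form TGACG, the hexamer TGCCGC read by the imprint-keeping protein ZFP57, the TATA box letters TATAAA and the CCAAT box letters CCAAT. Each full element also contains 2 overlapping copies of the shorter form.
Meg3, chr12:109540746-109541045: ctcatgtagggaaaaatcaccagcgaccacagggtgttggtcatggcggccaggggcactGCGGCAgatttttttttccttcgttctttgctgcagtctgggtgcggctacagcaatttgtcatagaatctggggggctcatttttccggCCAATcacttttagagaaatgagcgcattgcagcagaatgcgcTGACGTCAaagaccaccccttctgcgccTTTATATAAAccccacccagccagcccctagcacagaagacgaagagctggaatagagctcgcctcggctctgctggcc
Rian, chr12:109603695-109603994: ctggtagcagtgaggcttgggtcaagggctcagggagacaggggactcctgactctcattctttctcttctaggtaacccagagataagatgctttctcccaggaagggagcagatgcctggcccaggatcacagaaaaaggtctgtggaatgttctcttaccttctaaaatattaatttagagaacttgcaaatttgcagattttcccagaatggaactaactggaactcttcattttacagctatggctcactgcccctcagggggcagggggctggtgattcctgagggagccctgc
Mirg, chr12:109734731-109735030: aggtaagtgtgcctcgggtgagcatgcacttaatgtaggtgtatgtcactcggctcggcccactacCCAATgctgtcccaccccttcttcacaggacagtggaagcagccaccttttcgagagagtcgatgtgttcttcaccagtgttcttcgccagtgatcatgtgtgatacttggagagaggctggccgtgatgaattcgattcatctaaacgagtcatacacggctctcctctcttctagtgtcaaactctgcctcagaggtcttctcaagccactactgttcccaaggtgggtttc
Dlk1, chr12:109452573-109452872: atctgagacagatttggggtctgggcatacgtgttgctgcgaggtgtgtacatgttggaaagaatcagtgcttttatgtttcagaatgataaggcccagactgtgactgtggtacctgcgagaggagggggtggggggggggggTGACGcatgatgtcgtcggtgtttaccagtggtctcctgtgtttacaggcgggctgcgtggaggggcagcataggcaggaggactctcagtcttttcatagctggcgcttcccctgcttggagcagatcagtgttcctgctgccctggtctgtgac

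The Meg3 window held the full cyclic AMP response element at position -57 from the start, a ZFP57 hexamer at -190, a CCAAT box at -100 and overlapping TATA letters on both strands at -29 and -25. Of 32817 RefSeq windows of the same length, 1.79% held the full element, 11.6% the hexamer, 13.6% the TATA letters, 37.4% the CCAAT letters and 20.8% the shorter form. The Rian window held none of these letters and 0 CpG dinucleotides, against 13 CpG in the Meg3 window and a median of 7 over all windows. The Mirg window held 1 CCAAT match and 10 CpG, and the Dlk1 window 1 match to the shorter form and 9 CpG. A second annotated start of Meg3, at chr12:109545148-109545447, had 1 CpG and no match. The Mirg window also holds the mature microRNA sequences miR-668-5p, miR-668-3p and miR-485-3p. Whether transcription begins at these annotated starts in colon was not measured. These matches are letters in 1 window and were not measured as binding sites.

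The non-coding RNAs of the cluster also carry microRNAs, which the array did not measure as mature molecules. The sequence table placed mature microRNAs of 61 genes between Dlk1 and Dio3, with 2 of these genes inside the annotated span of Meg3, 3 inside Rian, 10 inside Mirg, 15 inside Rtl1 (whose own transcript runs on the opposite strand) and 31 between the genes. A few mature sequences from RefSeq (GRCm38.p6) are shown to make the content of the higher transcripts visible, with the seed, bases 2 to 8, in capitals. The first is carried by Meg3, the next by Rian and the last 4 by Mirg.
mmu-miR-770-5p: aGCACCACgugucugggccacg
mmu-miR-370-3p: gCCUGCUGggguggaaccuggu
mmu-miR-409-3p: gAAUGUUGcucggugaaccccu
mmu-miR-410-3p: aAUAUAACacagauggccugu
mmu-miR-496a-5p: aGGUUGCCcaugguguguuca
mmu-miR-453: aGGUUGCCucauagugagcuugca

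Of these 6, only miR-496a-5p and miR-453 share a seed. Over the interval, 113 mature names had 104 seeds, and 9 seeds were shared by more than 1 name.

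Expression was read as RMA signal, a background-corrected and quantile-normalized value per probe set, taken here as log2. A difference of 1 is therefore a 2-fold change, and quantile normalization hides any change in total RNA. With 3 arrays in each group the precision is limited, and signals near the low end understate differences. Over 10916 genes, r was 0.9964 to 0.9989 within a group and 0.9907 to 0.9923 between the groups. The targeted gene was lower: the brightest Hdac2 probe set read 10.40, 10.37 and 10.43 in control and 10.21, 10.12 and 10.24 in HDAC2 KO, a fall by 0.21 (SE 0.040, limma adjusted p = 0.00893, n = 3 per group). The adjusted p was 0.0884 without probe sets that can bind several transcripts, and the sources used here do not say whether these probes lie in the deleted part. Xist, which is made in female cells, read at least 11.52 on all 6 arrays, while Eif2s3y, a Y-linked gene, read 7.48 to 7.56 in control and 7.89 to 8.32 in HDAC2 KO. Both kinds of signal stood on the same arrays, and whether an array holds RNA of more than 1 mouse was not tested. Eif2s3y was higher and Xist lower in HDAC2 KO, and their part in the values of the cluster was not tested.

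Nearly every probe set of the cluster read higher in HDAC2 KO. Of the 19, 18 had a higher mean in HDAC2 KO and 1 a lower one, and in 16 all HDAC2 KO arrays lay above all control arrays. Over all probe sets, 11.9% separated in that direction. The median difference was 0.60 over the members and 0.00 over all probe sets. At a limma adjusted p under 0.05 over all 45037 probe sets, 12 of the 19 were called, all higher, where 1.72% of all probe sets were called higher and 3.8% in either direction. With the replicate number as a block, 9 of the 19 were called, and the count of probe sets called fell from 1712 to 929. A difference of at least 2-fold upward was read in 5 of the 19, against 0.131% of all, and of at least 2.5-fold in 4, all Meg3, against 0.0777%. Since the members were chosen with this contrast known, nothing is read from these counts.

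**Figure D1:**
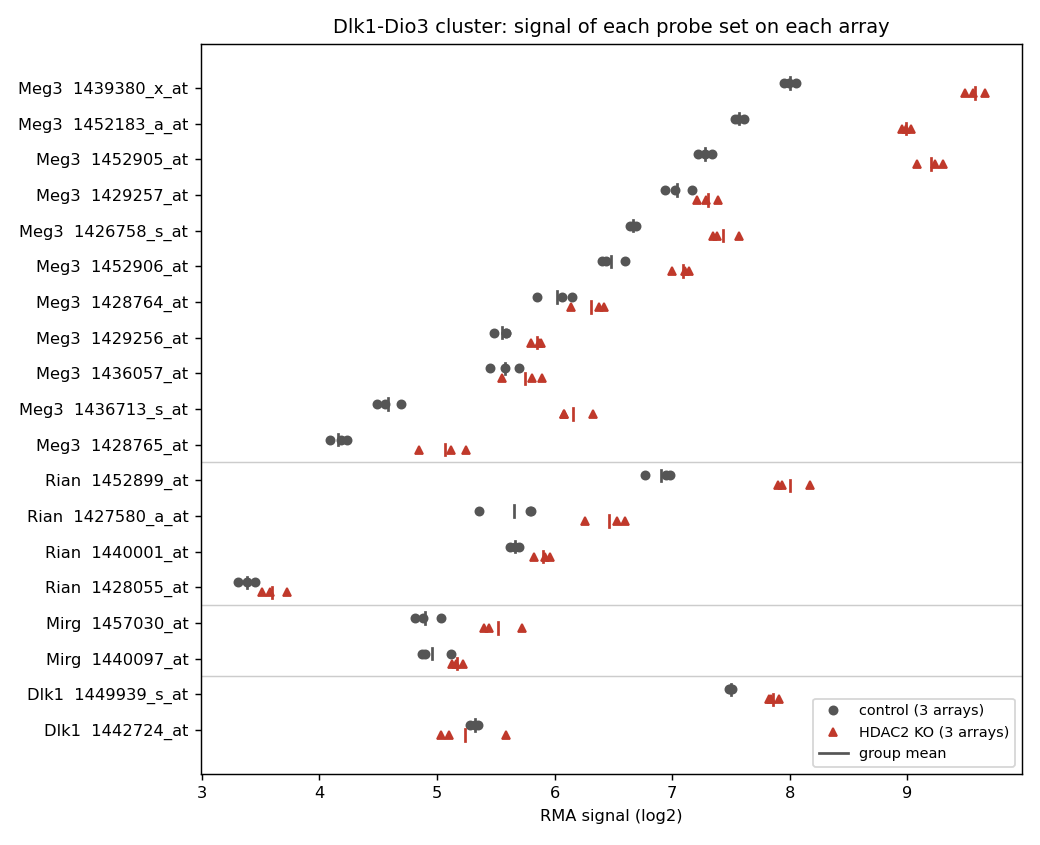
RMA signal (log2, horizontal axis) of the 19 probe sets, sorted by gene and by mean signal, with a grey circle for each of 3 control arrays, a red triangle for each of 3 HDAC2 KO arrays and a short line for each group mean. In 16 probe sets the triangles lie wholly to the right of the circles, and in 2 of Meg3 and 1 of Dlk1 they overlap.

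Meg3 is a maternally expressed long non-coding RNA that is largely nuclear and has been studied as a growth-restraining transcript. Its 11 probe sets all had a higher mean in HDAC2 KO, but by very different amounts, from 1.13-fold to 3.79-fold, with a median difference of 0.77. They fell into 4 with a difference of 1.42 to 1.92, 3 with 0.60 to 0.91 and 4 with 0.18 to 0.30. These ranges were set after the values were seen and serve only to describe them.

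The largest difference was that of 1452905_at. It read 7.28, 7.34 and 7.22 in control and 9.30, 9.08 and 9.23 in HDAC2 KO, a difference of 1.92 (SE 0.069, 3.79-fold). The lowest HDAC2 KO array stood 1.74 above the highest control array. This difference ranked 12 among all 45037 probe sets. For 1436713_s_at, control arrays read 4.56, 4.49 and 4.69 and HDAC2 KO arrays 6.33, 6.08 and 6.08, a difference of 1.58 (SE 0.086, 3.00-fold). Its control level lay near the low end of the signal, where folds are compressed, and the groups stood far apart. The suffix _s_at marks a set whose probes can bind several transcripts.

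The brightest Meg3 probe set, 1439380_x_at, read 7.95, 7.99 and 8.05 in control and 9.66, 9.49 and 9.56 in HDAC2 KO, a difference of 1.58 (SE 0.061, 2.98-fold). Its suffix _x_at marks probes that can bind other transcripts. The set 1452183_a_at has neither suffix and gave 7.56, 7.53 and 7.61 in control and 9.03, 8.99 and 8.95 in HDAC2 KO, a difference of 1.42 (SE 0.049, 2.68-fold). Both sets separated the groups by at least 1.34, many times the within-group SD of 0.038 to 0.090.

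The middle set comprised 1428765_at, 1426758_s_at and 1452906_at. The dim set 1428765_at read 4.18, 4.09 and 4.23 in control and 4.85, 5.25 and 5.12 in HDAC2 KO, a difference of 0.91 (SE 0.10, 1.88-fold). Its HDAC2 KO arrays spread more widely (SD 0.21, n = 3) than its controls (SD 0.068). The set 1426758_s_at read 6.67, 6.64 and 6.69 in control and 7.57, 7.35 and 7.38 in HDAC2 KO, a difference of 0.77 (SE 0.067). For 1452906_at the control arrays read 6.40, 6.44 and 6.60 and the HDAC2 KO arrays 7.00, 7.14 and 7.11, a difference of 0.60 (SE 0.070). No control array reached an HDAC2 KO array in any of these 3 sets.

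In the remaining 4 sets of Meg3 the groups lay close together. The set 1429256_at read 5.59, 5.48 and 5.59 in control and 5.80, 5.88 and 5.87 in HDAC2 KO, a difference of 0.29 (SE 0.054). The brighter set 1429257_at read 7.02, 6.94 and 7.17 against 7.39, 7.21 and 7.29, a difference of 0.26 (SE 0.076), and its groups were only 0.04 apart. Overlap occurred in the other two. For 1428764_at, control arrays read 5.85, 6.06 and 6.15 and HDAC2 KO arrays 6.38, 6.42 and 6.14, a difference of 0.30 (SE 0.10). For 1436057_at they read 5.45, 5.58 and 5.70 and 5.81, 5.89 and 5.55, a difference of 0.18 (SE 0.10). In both, HDAC2 KO replicate 3 was the array that fell among the controls.

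The size of the difference did not simply follow brightness. Across the 11 Meg3 probe sets, which share arrays and a gene, Spearman's rho between mean signal and difference was 0.29, given as a description. The 2 sets 1429257_at and 1426758_s_at had nearly the same mean signal, 7.17 and 7.05, and differences of 0.26 and 0.77. Probe sets built on 1 sequence record also differed: 1452905_at, 1428765_at and 1428764_at come from 1 record and gave 1.92, 0.91 and 0.30. Conversely, 1429256_at and 1429257_at share a record and gave 0.29 and 0.26, although their signals lie far apart. The sources used here do not say where the probes lie in the Meg3 transcripts, and so which transcript forms they read.

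**Figure D2:**
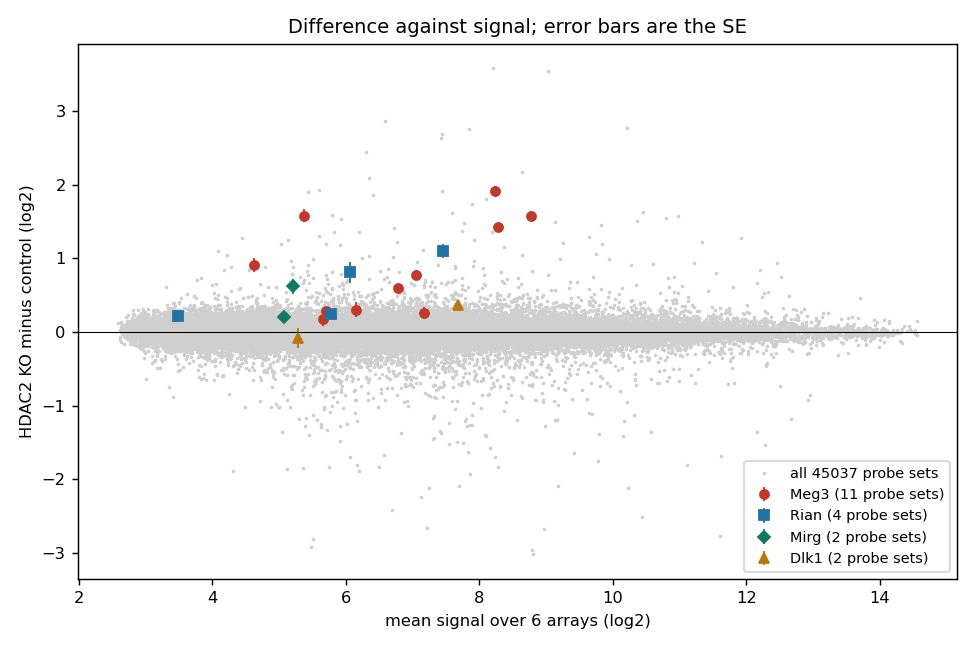
Difference between HDAC2 KO and control (log2, vertical axis) against the mean signal over 6 arrays (log2, horizontal axis) for 45037 probe sets in grey, with the probe sets of Meg3, Rian, Mirg and Dlk1 in colour and their SE as bars. Meg3 sets appear both at the upper edge, up to 1.92, and within the grey band at 0.18 to 0.30, over signals of 4.62 to 8.78.

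Rian, the long non-coding RNA next to Meg3 and host of a family of box C/D small nucleolar RNAs, was higher in HDAC2 KO in all 4 of its probe sets, with no overlap of the groups in any. The brightest, 1452899_at, read 6.77, 6.95 and 6.98 in control and 7.90, 7.93 and 8.17 in HDAC2 KO, a difference of 1.10 (SE 0.089, 2.15-fold). The set 1427580_a_at read 5.79, 5.80 and 5.36 in control and 6.53, 6.26 and 6.60 in HDAC2 KO, a difference of 0.81 (SE 0.14, 1.76-fold). Control replicate 3 was low in the latter set, which gave it the largest control SD of all member sets, 0.25.

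The other two Rian sets differed less. The set 1440001_at read 5.66, 5.70 and 5.62 in control and 5.92, 5.96 and 5.82 in HDAC2 KO, a difference of 0.24 (SE 0.055). The set 1428055_at read 3.38, 3.31 and 3.45 against 3.58, 3.72 and 3.51, a difference of 0.22 (SE 0.069). The latter lay at percentile 7.64 of all probe sets by mean signal, and its groups were 0.06 apart.

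Mirg, the transcript at the far end of the non-coding stretch and host of the miR-410 group, was dim in both probe sets, at percentiles 33.7 and 31.3 of the signal. The set 1457030_at read 4.88, 4.81 and 5.03 in control and 5.44, 5.72 and 5.40 in HDAC2 KO, a difference of 0.62 (SE 0.098, 1.53-fold). The set 1440097_at read 4.87, 4.90 and 5.12 against 5.13, 5.16 and 5.22, a difference of 0.20 (SE 0.075). The groups did not overlap in either set, but in the second they came within 0.01 of each other.

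Dlk1, the paternally expressed gene of the measured set, gave a smaller difference in 1 probe set and none of clear direction in the other. The set 1449939_s_at read 7.48, 7.49 and 7.51 in control and 7.84, 7.82 and 7.91 in HDAC2 KO, a difference of 0.36 (SE 0.047, 1.29-fold). Both groups were tight there, and the lowest HDAC2 KO array stood 0.31 above the highest control array. Its suffix _s_at marks probes that can bind several transcripts, and the other Dlk1 set has no such suffix. The set 1442724_at read 5.35, 5.28 and 5.32 in control and 5.59, 5.03 and 5.10 in HDAC2 KO, a difference of -0.08 (SE 0.14). HDAC2 KO replicate 1 was above and the other two below all controls, and without that array the difference was -0.25.

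Ordered by the brightest probe set of each gene, the differences ran from 1.58 (SE 0.061) for Meg3 through 1.10 (SE 0.089) for Rian and 0.62 (SE 0.098) for Mirg to 0.36 (SE 0.047) for Dlk1. The order was not tested, and it does not hold for every probe set, since the weakest sets of Meg3 and Rian lay below the stronger sets of Mirg and Dlk1. Within the HDAC2 KO group, replicate 1 was the highest array in 6 of the 11 Meg3 sets, replicate 2 in 5 and replicate 3 in 0. For Rian, replicate 2 and replicate 3 were each highest in 2 of 4 sets. Among controls, replicate 3 was highest in 9 of 11 Meg3 sets.

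Other probe sets inside the interval showed no such separation. Dio3os, a long non-coding RNA that runs opposite to Dio3, read 6.31, 6.12 and 6.44 in control and 6.40, 6.36 and 6.36 in HDAC2 KO, a difference of 0.08 (SE 0.081). The groups overlapped. A set annotated with both Mir127 and the transcript 6430411K18Rik read 5.51, 5.59 and 5.69 against 5.55, 5.69 and 5.75, a difference of 0.06 (SE 0.072). The non-coding 3110009F21Rik differed by 0.03 (SE 0.098) at a signal close to the bottom of the array, percentile 3.32. These genes are no members and were picked out by their position.

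The next question was whether genes beyond the cluster on chromosome 12 moved as well. Genes were tested with 1 probe set each, the brightest, over the 10916 genes above a signal of 6.66, of which 17.9% were called at a limma adjusted p under 0.05, 9.68% higher and 8.2% lower. On the 15 named genes to each side, 23 of 30 passed the signal filter, 1 was called higher and 3 lower, and their median difference was 0.02. All 4 called genes lay on the Dlk1 side, where 12 were tested, and 0 of 11 tested on the Dio3 side were called, with 2 at an unadjusted limma p under 0.05. With the replicate number as a block 7 of the 23 were called. The tested neighbours differed by -0.49 to 0.19. Below the filter, where no call was made, Exoc3l4 differed by 0.34 (SE 0.087) and Amn by 0.29 (SE 0.089), both on the Dio3 side. Their groups did not overlap, and the sizes lay near the 0.36 of Dlk1. The other neighbours below the filter differed by -0.11 to 0.08. Mirg was also below the filter.

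The call with the largest size was Slc25a29, a mitochondrial carrier of basic amino acids, which read 8.68, 8.78 and 8.81 in control and 8.24, 8.28 and 8.29 in HDAC2 KO (difference -0.49, SE 0.043, limma adjusted p = 0.000223, n = 3 per group). Its probe sets disagreed, and with the mean of all its sets the difference was -0.09 (limma adjusted p = 0.114). Bcl11b, a transcription factor required in T cells, was 1.15-fold lower (limma adjusted p = 0.00557), and Evl, an actin regulator, 1.12-fold lower (limma adjusted p = 0.048), a call lost in 9 of 13 alternatives. Degs2, a sphingolipid hydroxylase, rose 1.13-fold (limma adjusted p = 0.00831). All 8 tested T and B cell markers fell in the same arrays (median -0.69), and their part in the values of Bcl11b and Evl was not tested.

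**Figure D3:**
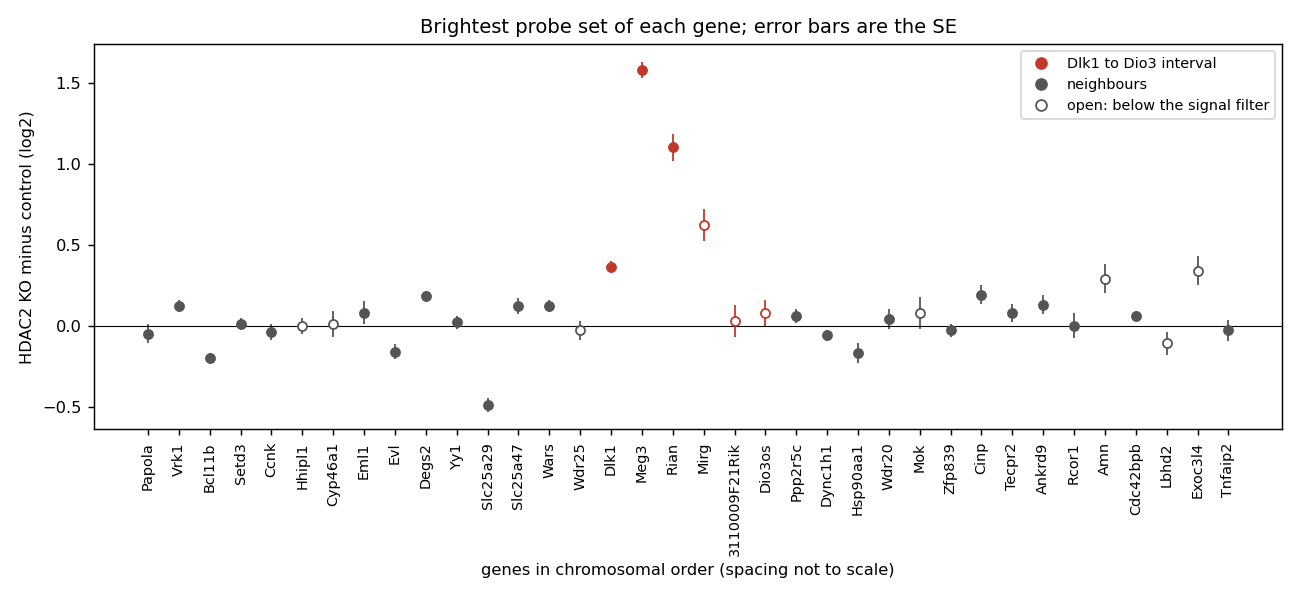
Difference between HDAC2 KO and control (log2, with SE bars) of the brightest probe set of each gene, in chromosomal order with spacing not to scale. Red points are genes of the Dlk1 to Dio3 interval, grey points the 15 named neighbours on each side, and open points genes below the signal filter. Meg3 and Rian stand at 1.58 and 1.10 and Mirg, an open point, at 0.62, while tested neighbours lie between -0.49 and 0.19. Among the open neighbours, Exoc3l4 and Amn reach 0.34 and 0.29.

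Imprinted genes at other places in the genome moved in both directions. Of 28 tested, 3 rose and 5 fell, 28.6% called against 17.9% of all genes tested, with a median of -0.04. Plagl1, a paternally expressed zinc finger gene that regulates other imprinted genes, read 8.68, 8.59 and 8.62 in control and 9.07, 9.03 and 9.20 in HDAC2 KO (1.39-fold higher, limma adjusted p = 0.000564). The growth factor gene Igf2 was 1.18-fold lower (limma adjusted p = 0.0121) and Peg3, a zinc finger gene, 1.14-fold lower (limma adjusted p = 0.0101, 0.0525 without control replicate 1). Among genes listed as maternally expressed, Gatm, which encodes a creatine synthesis enzyme, was 1.33-fold lower (limma adjusted p = 0.000969). Ascl2, a stem cell transcription factor, was 1.24-fold lower (limma adjusted p = 0.00197) and Slc22a18 1.17-fold higher (limma adjusted p = 0.011). Of 15 genes listed as maternally expressed, 1 rose and 3 fell. Of 13 listed as paternally expressed, 2 rose and 2 fell, 4 calls that became 2 without control replicate 1. Nnat, also listed as paternally expressed, lay below the signal filter, where no call was made. It differed by -0.81 (SE 0.066) with no overlap of the groups, whereas the tested genes differed by -0.41 to 0.47. The other listed genes below the filter differed by -0.13 to 0.15. The array does not tell parental copies apart, and whether these genes are imprinted in colon was not tested.

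The machinery that keeps imprints is made up of DNA methyltransferases, their partners and the KAP1 and zinc finger proteins that protect methylated control regions. Of 16 tested genes, 3 rose and 1 fell, with a median of -0.03. Hells, a remodeller that aids DNA methylation, rose 1.27-fold (limma adjusted p = 0.00853), Uhrf1, which guides DNMT1 to newly copied DNA, 1.24-fold (0.0077) and the histone methyltransferase gene Setdb1 1.13-fold (0.0133). Aff3, whose protein is known to bind the control region of this cluster, fell 1.21-fold (0.00486). Dnmt1 itself differed by 0.11 (SE 0.039, limma adjusted p = 0.0874), Dnmt3a by -0.06 (SE 0.035) and Trim28 by -0.07 (SE 0.045), and these were not called. Zfp57 lay below the signal filter, at 5.46 to 5.58 in control and 5.50 to 5.53 in HDAC2 KO.

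Meg3 RNA is known to contact Polycomb repressive complex 2, and 0 of 11 genes of that complex were called with limma, their differences lying between -0.10 and 0.07. At an unadjusted limma p under 0.05 there was 1, and with array weights 1 was called. Phf1 (-0.10, SE 0.043) and Ezh1 (-0.09, SE 0.041) had the smallest p. Of 12 tested p53 target genes, named because Meg3 has been linked to p53, 2 rose and 0 fell. Cdkn1a, which encodes the cell cycle inhibitor p21, rose 1.25-fold from 11.58, 11.61 and 11.54 to 11.90, 11.92 and 11.89 (limma adjusted p = 0.000521), and Sesn1 rose 1.14-fold (limma adjusted p = 0.0276), a call lost in 8 of 15 alternatives. The p53 list had 1 call without control replicate 1 or 3 or HDAC2 KO replicate 1 or 3, and 4 with array weights. The median over the p53 targets was 0.03.

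The cyclic AMP response list was set beside the element in the Meg3 window. Of 10 tested genes 2 rose and 1 fell, with a median of 0.03. Without control replicate 2 the 3 calls became 1. The prohormone convertase gene Pcsk1 rose 1.57-fold (limma adjusted p = 5.75e-05) and the immediate early gene Nr4a1 1.19-fold (0.0386, lost in 6 of 15 alternatives), while Creb1, which encodes the factor that binds the element, fell 1.12-fold (0.0117, with 0.0507 without control replicate 2 and 0.0916 with the mean of its probe sets). Of 16 other long non-coding RNAs tested, 1 rose and 4 fell. These 5 calls became 3 without control replicate 1, control replicate 2 or HDAC2 KO replicate 3, and 3 with no signal filter. Malat1, an abundant nuclear RNA, was 1.55-fold lower (limma adjusted p = 0.00979), Xist 1.40-fold lower (4.46e-05) and Gas5, which like Rian hosts small nucleolar RNAs, 1.22-fold lower (0.000952). The Malat1 call was lost without probe sets that can bind several transcripts (difference -0.12, limma adjusted p = 0.133). The gene of this list that rose was Snhg5, 1.12-fold (limma adjusted p = 0.0355). Below the signal filter, where no call was made, Snhg3 differed by 0.42 (SE 0.065) with no overlap of the groups. The other listed long non-coding RNAs below the filter differed by -0.03 to 0.03. In microRNA processing 0 of 14 genes were called with limma, 4 had an unadjusted p under 0.05 and 3 were called with array weights or 2 without HDAC2 KO replicate 3, with Ago1 at -0.10 (SE 0.036) and Tnrc6b at -0.18 (SE 0.064).

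For the protein-coding side of the cluster, the receptors and substrates were read. In the Notch list, to which DLK1 is related, 3 of 9 tested genes fell and 0 rose: Notch2 by 1.19-fold (limma adjusted p = 0.00715), Notch1 by 1.18-fold (0.00893) and the ligand gene Dll1 by 1.15-fold (0.018, a call lost without control replicate 2, without control replicate 3 and with no signal filter). In the thyroid hormone list, 2 of 11 rose and 2 fell. These 4 calls became 2 without control replicate 2 or HDAC2 KO replicate 1 or 3, and 1 without control replicate 3 or with no signal filter. Ttr, a carrier of thyroid hormone and retinol, was 1.59-fold lower (limma adjusted p = 1.22e-05) and Thrsp, a lipogenic response gene, 1.25-fold lower (0.0222), while Klf9, a thyroid hormone response gene, rose 1.10-fold (0.0251). Thrsp lost its call in 3 of 14 alternatives and Klf9 in 5 of 15.

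Since fewer cells of a type and less RNA per cell cannot be told apart in such samples, markers of the cell types of the colon were set beside the cluster. Sums below add the linear signal of the listed genes. Epithelium markers rose in 3 of 14 and fell in 0, led by Krt20 (1.40-fold, limma adjusted p = 9.11e-05), and their sum was 154662 to 155814 in control and 163214 to 167235 in HDAC2 KO, a ratio of 1.07. Enteric neuron markers, a known site of Meg3 expression, rose in 2 of 15 and fell in 0. The neuropeptide gene Gal rose 1.61-fold (limma adjusted p = 6.85e-05) and Syt1 1.11-fold (0.0353, lost in 7 of 13 alternatives). Their sum was 3567 to 3733 in control and 3858 to 3973 in HDAC2 KO, a ratio of 1.07. Without control replicate 1 or 3 or HDAC2 KO replicate 2 or 3, 1 of the neuron markers was called, and with array weights 5. Smooth muscle markers rose in 3 of 10 and fell in 0, led by Cnn1 (1.25-fold, limma adjusted p = 0.000449), and summed to 52790 to 53551 and 57358 to 58156, a ratio of 1.08. Of the glial markers 1 of 3 tested rose, Cryab, a call lost without any 1 of the controls, without HDAC2 KO replicate 1 and with no signal filter. Sox10 differed by 0.04 (SE 0.046) and Erbb3 by 0.02 (SE 0.032), and neither was called. S100b, Gfap and Foxd3 lay below the filter.

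The other lists differed among themselves. The sum of the adipocyte and preadipocyte list was 14706 to 15401 in control and 3492 to 3719 in HDAC2 KO, a ratio of 0.238. In that list 5 of 6 tested genes fell, Adipoq by 8.13-fold, and Pparg rose 1.28-fold (limma adjusted p = 0.00854). Dlk1, known from preadipocytes, read higher in its brighter set, 1449939_s_at, but not in the other. Fibroblast and matrix markers fell in 3 of 12, with Thy1 at -0.35 (limma adjusted p = 0.000909) and Dcn at -0.25 (0.00357, lost with the mean of its probe sets), and endothelial markers fell in 5 of 9, led by Vwf at -0.60 (0.00012). The 5 endothelial calls became 3 without control replicate 1. T and B cell markers fell in 8 of 8 and macrophage and mast cell markers in 4 of 5. The latter were the mast cell proteases Mcpt1 (-1.94) and Mcpt2 (-1.70), Lyz2 (-0.32) and Csf1r (-0.29), and Mrc1 (-0.10) was not called. Below the filter, where no call was made, Cd163 differed by 0.42 (SE 0.12), with its groups 0.02 apart. There Adgre1 differed by -0.02, Itgam by 0.01, Cd68 by -0.12, Mcpt4 by -0.16 and Cpa3 by -0.66. Enteroendocrine markers rose in 3 and fell in 3 of 10, and the 6 calls became 2 without control replicate 1, control replicate 2 or HDAC2 KO replicate 3, 3 without control replicate 3 or HDAC2 KO replicate 1, and 2 with no signal filter. Among the remaining lists, 1 of 3 tested pancreas markers fell, Cela1, and 1 of 2 markers of interstitial cells of Cajal fell, Ano1 at -0.11 (lost in 11 of 15 alternatives). Of 7 mesothelial markers only Upk1b passed the filter, at a difference of 0.26 (SE 0.10), and it was not called except with the replicate block. Below the filter, where no call was made, Gpm6a differed by -1.04, Lrrn4 by -0.65, Upk3b by -0.46 and Wt1 by -0.31 with no overlap of the groups. The sum of the list had a ratio of 0.919. The part of these cell types in the cluster's values was not tested.

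**Figure D4:**
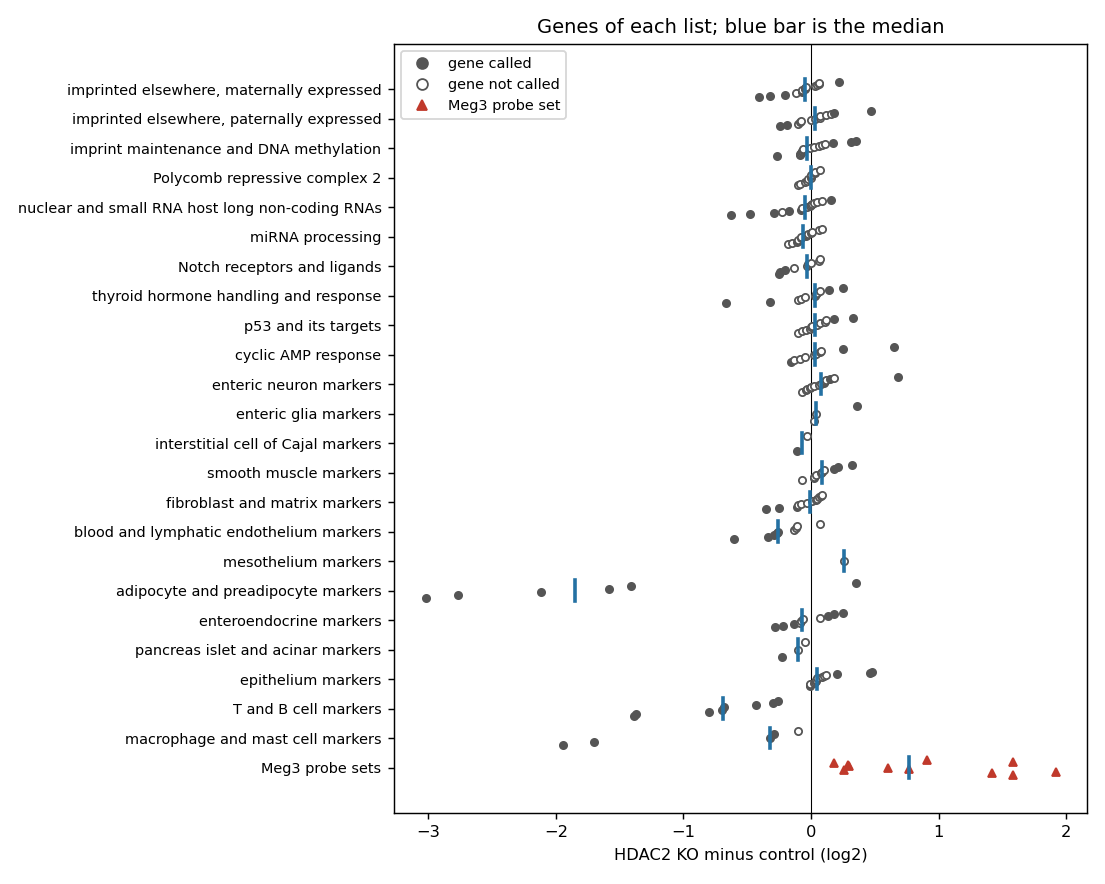
Difference between HDAC2 KO and control (log2, horizontal axis) of each tested gene in 23 lists, filled where called and open where not, with the list median as a blue bar, and the 11 Meg3 probe sets as red triangles at the bottom. The medians of all lists other than adipocyte, lymphocyte, macrophage and mast cell, endothelial and mesothelial lie between -0.10 and 0.09, and the median of the Meg3 sets is 0.77.

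Finally, the genes whose array profile was most like that of the brightest Meg3 probe set were found among 10644 named genes. Likeness was the root mean square difference between the 6 values of a gene and those of Meg3, each centred on its own mean. The closest was Cyp2c65, a cytochrome P450 gene, at 0.0811, with 8.44, 8.38 and 8.33 in control and 9.91, 9.78 and 9.95 in HDAC2 KO. Next came Sptssb, a subunit of serine palmitoyltransferase, at 0.0954, Itln1, an intelectin, at 0.128, Slc15a2, a peptide transporter, at 0.129 and Gdpd3, a phosphodiesterase family gene, at 0.149. These genes differed between the groups by 1.36 to 1.54. The likeness rests mainly on the difference between the groups and on 6 arrays.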

How the data were processed

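Biotin-labelled cRNA of 6 colon samples was hybridised to 1-colour Affymetrix mouse arrays. The values were made by the authors with RMA, per the submitters' processing notes, with no version given. The deposited signal ranged from 2.39 to 14.6 with array medians of 6.17 to 6.21 and was taken as log2. Gene names came from the platform annotation of the array: of 45101 probe sets, 64 were array controls, 34945 had 1 symbol, 932 had several and 9160 had none listed. RefSeq (GRCm38.p6) gave positions and sequences.

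Differences are HDAC2 KO minus control. Moderated SEs and adjusted p-values came from R 4.3.3 with limma 3.58.1 (a linear model of group with eBayes, Benjamini-Hochberg adjustment). Member probe sets were read in a fit of all 45037 probe sets. Neighbours and lists were read in a fit of the brightest probe set of each of 18193 genes, of which 10916 were at or above the 40th percentile of signal. Calls had an adjusted p under 0.05. In data simulated for this comparison with 200 changed features, the fit of 10916 genes recovered 80.6% of changes of 0.3 on the log2 scale. The fit of 45037 probe sets recovered 9.0%. In the real data 1952 genes and 1712 probe sets were called. Recovery depends on the share of changed features, so these values do not give the recovery in the real data.

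The members and the 23 gene lists were chosen with earlier results of these data known. Named are Hdac2, all members, called neighbours, up to 3 called genes of a list with the smallest p (or 2 where none was called) and the 5 genes most like Meg3. Exceptions were named after their values were seen or for their role. They were probe sets of the interval, Dnmt1, Dnmt3a, Trim28, Setdb1, Zfp57, Eif2s3y, Pparg, Nnat, Amn, Exoc3l4, Snhg3, Snhg5, Csf1r, Mrc1, Sox10 and Erbb3. Mesothelial, glial, macrophage and mast cell markers below the filter were further exceptions. No scan date or detection call was used here, and a batch of hybridisation was not tested. Same-numbered arrays deviated together over the genes tested (r = 0.212, 0.336 and 0.201), while differently numbered arrays gave r of -0.367 to 0.183. The 0.183 of control replicate 1 with HDAC2 KO replicate 3 lay close to the 0.201 and 0.212. Deviations from a mean of 3 arrays are also tied to each other. A pairing is thus only weakly borne out by the correlations, and no label gives one.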

Additional observations from a re-analysis of the deposited data

How the results depend on the processing

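In all 171 alternative values, the differences of the 19 member probe sets moved by less than the spread between replicates. The alternatives were leaving out each array, a further quantile normalization, centring on the array median and pairing by number. Leaving out an array cannot move a group mean by more than that spread or undo a separation. Pairing by number leaves every difference unchanged. Only the further normalization and the centring could therefore have moved a difference further or undone a separation. The count of separated member sets was 16 to 18 over all these alternatives. The count of member sets called lay between 8 and 13, with 8 of 15 called without sets that can bind several transcripts. The span between the largest and smallest Meg3 difference was 1.75, and 1.65 to 1.88 when 1 array was left out. The number of probe sets called was 1712. It was 929 with replicate numbers blocked, 3354 under robust variances with a trend on intensity, and 779 to 1466 when 1 array was left out. The number of genes called was 1952, and 3506 with array weights and 1130 to 2107 when 1 array was left out. Of 23 tested neighbours 4 were called, 9 with array weights and 7 with replicate numbers blocked. Of 67 genes named by the rule, called or not, 45 stayed on their side of the threshold in every alternative, 18 lost a call in at least 1 and 4 gained one. Of 345 list counts under alternatives, 69 were over 1.5 times apart from the main count. With low signal, as in Mirg, small differences cannot be resolved.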
